A study of Danio rerio with 6 samples.

Results

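The 10 glycolysis enzyme paralogs *gapdh*, *gapdhs*, *aldoca*, *aldocb*, *eno1a*, *eno2*, *pkma*, *pkmb*, *ldha* and *ldhba* were examined in larval zebrafish heads. They were found by gene name among the 32520 genes listed in the deposited tables, where each name had a single entry, and all 10 were among the 22824 genes tested. RNA-seq was performed on dissected heads at 4 dpf of the AB strain, with 3 wt samples and 3 tulp1a&tulp1b knockout samples (*tulp1*-dKO), a line in which both zebrafish homologs of the photoreceptor gene *TULP1* were mutated with CRISPR/Cas9. The double mutant descends from 1 mutant line per gene, and the number of larvae behind each library is not given in the sources used here. Levels are given as TPM, a transcript abundance that is scaled to library size and corrected for transcript length, so that it can be compared between genes.

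Glycolysis breaks glucose down to pyruvate in the cytosol. Aldolase splits the 6-carbon sugar, glyceraldehyde-3-phosphate dehydrogenase makes the first NADH, enolase and pyruvate kinase carry out the last steps, and lactate dehydrogenase turns pyruvate into lactate and regenerates NAD+. The vertebrate retina, and its photoreceptors above all, is known for converting much of its glucose to lactate even when oxygen is present. Teleost fish keep duplicated copies of many of these enzymes, so 1 reaction is often served by several genes.

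*tulp1a* was at 23.7 to 25.3 TPM in the wt samples, against 14.4 to 16.0 TPM in *tulp1*-dKO, and *tulp1b* at 9.77 to 13.1 and 2.01 to 2.71 TPM, so both targeted genes were lower in the libraries labelled as knockout. The listed genes summed to between 945666 and 948860 TPM per library. Read depth cannot be had from TPM, so errors rest on the spread among samples. Nothing in the labels says whether the samples came from separate clutches, so the p-values may measure technical spread only. All 10 neuronal markers were tested and *elavl3* was at 183 to 233 TPM, but liver and pancreas markers were also present and varied between libraries. The 10 liver marker names, with 11 entries, summed to 4734 to 6762 TPM in the wt samples, against 3209 to 7943 TPM in *tulp1*-dKO, and the 10 pancreas and gut markers to 821 to 1288 and 715 to 3368 TPM, with *tulp1*-dKO sample 1 the lowest and *tulp1*-dKO sample 3 the highest for both.

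Of these paralogs only *aldocb*, 1 of 2 aldolase C genes, passed the test in *tulp1*-dKO heads, and it fell by 24.9%. The mean TPM of the other 9 differed from wt by between −16.3% (*aldoca*) and 11.1% (*gapdh*). No member was called higher, and none changed by 2-fold or more. The 10 log2 fold changes lay between −0.42 and 0.13, 8 of them negative and 2 positive, and their median was −0.11, compared with 0.05 for all genes. Each of the 10 was below 0.5 in size, as were 82.3% of all genes. Each was tested with limma on log2(TPM + 0.1), a scale on which the change of low genes is understated, with Benjamini-Hochberg adjustment over all 22824 genes. At an adjusted p of at most 0.05 without regard to size, 1.89% of all genes were called, 1.22% lower and 0.67% higher, and the count of 1 among 10 members rests on a single gene. With a 2-fold minimum added, 1.32% of all genes were called, 0.96% lower and 0.364% higher, and 0 of the 10 members. At an unadjusted p of at most 0.05 limma called 3 of the 10 members, against 17.1% of all genes. The shares over all genes are not matched to the members for level or spread. The median SD in wt was 5.17% of the mean for the members and 12.7% for all genes.

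**Figure D1:**
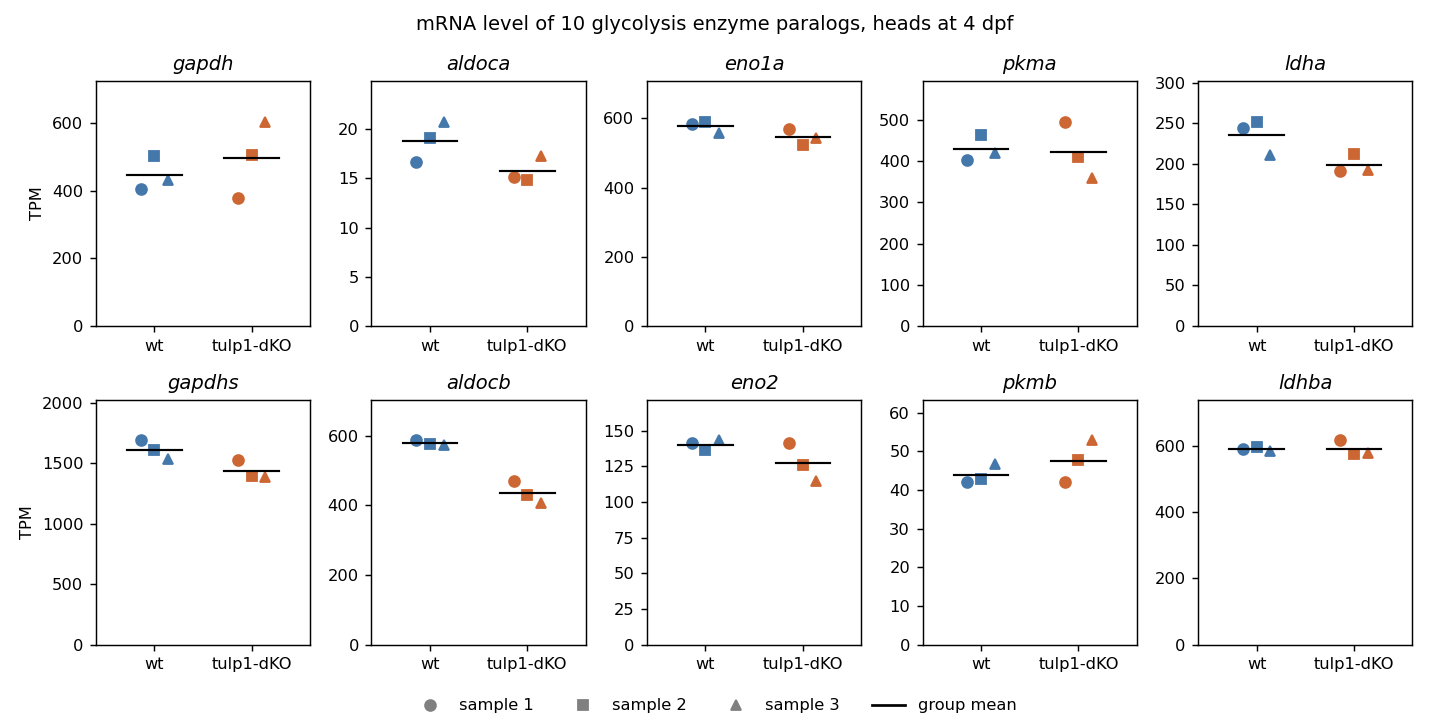
TPM of each paralog (vertical axes, from 0) in the 3 wt (blue) and 3 *tulp1*-dKO samples (orange), with a separate axis per gene and black lines at the group means. The groups separate for *aldocb* (574 to 587 against 405 to 469 TPM) and by a narrow margin for *gapdhs*, and overlap for the other 8 genes.

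The members differed widely in level. In wt heads *gapdhs* was the highest at 1611 ± 75.4 TPM (mean ± SD, n = 3), followed by *ldhba* at 591 ± 5.57, *aldocb* at 579 ± 7.11, *eno1a* at 577 ± 17.9, *gapdh* at 448 ± 50.4, *pkma* at 429 ± 31.9, *ldha* at 235 ± 21.9, *eno2* at 140 ± 3.52, *pkmb* at 43.9 ± 2.48 and *aldoca* at 18.9 ± 2.04 TPM. The ranges of *ldhba*, *aldocb* and *eno1a* touched each other, as did those of *gapdh* and *pkma*, so the order within these sets is not resolved. Every other neighbouring pair was separated by more than its spread. In *tulp1*-dKO heads *aldocb* moved from the third place to the fifth, at 435 ± 32.0 TPM, below *eno1a* (545 ± 23.5) and *gapdh* (497 ± 113), although its range overlapped those of *gapdh* and *pkma*, and that of *gapdh* overlapped *eno1a*. In both groups 1 paralog of each enzyme carried most of the mRNA of its pair.

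Aldolase C, the aldolase of the brain in mammals, was the enzyme with the largest difference. *aldocb* (ENSDARG00000019702) was at 587, 576 and 574 TPM in wt samples 1 to 3 and at 469, 430 and 405 TPM in *tulp1*-dKO samples 1 to 3. The wt samples lay close together and each *tulp1*-dKO sample was well below the lowest of them. The log2 fold change was −0.42 (SE 0.07, 95% interval −0.58 to −0.25, limma adjusted p = 0.0369). This call sits near the threshold. The direction held in all 17 alternatives, with log2 fold changes of −0.47 to −0.36, but the adjusted p from limma ran from 0.0221 to 0.149 and was at most 0.05 in 9 of them. It was 0.149, 0.115 and 0.0795 without wt sample 1, 2 or 3, and 0.143 and 0.0781 without *tulp1*-dKO sample 2 or 3.

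*aldoca* (ENSDARG00000057661), the other aldolase C gene, was far less abundant, at 2.77% to 4.10% of the pair. It was at 16.7, 19.1 and 20.8 TPM in the wt samples, against 15.1, 14.9 and 17.3 TPM in *tulp1*-dKO. Its groups overlapped, since *tulp1*-dKO sample 3 was above wt sample 1. Its log2 fold change was −0.25 (SE 0.12, 95% interval −0.54 to 0.03, limma adjusted p = 0.351), an interval that includes both no change and a fall like that of *aldocb*. The log2 ratio of *aldoca* to *aldocb* was −4.94 in wt and −4.78 in *tulp1*-dKO, a difference of 0.16 that did not exceed the spread (exact two-sided permutation test, p = 0.5).

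Glyceraldehyde-3-phosphate dehydrogenase was represented by *gapdh* (ENSDARG00000043457), often used as a reference gene, and *gapdhs* (ENSDARG00000039914), whose mammalian counterpart is known from sperm. In these heads *gapdhs* carried 76.1% to 80.6% of the mRNA of the pair in wt and 69.6% to 80.1% in *tulp1*-dKO. *gapdhs* was at 1688, 1609 and 1537 TPM in the wt samples, against 1526, 1391 and 1385 TPM in *tulp1*-dKO. The lowest wt sample was only just above the highest *tulp1*-dKO sample. The log2 fold change was −0.17 (SE 0.06, 95% interval −0.32 to −0.02, unadjusted p = 0.0341, limma adjusted p = 0.246), and the difference did not pass after adjustment. With *aldocb*, this made 2 of 10 members without overlap between the groups, both lower, against 23.5% of all genes tested, 8.86% lower and 14.6% higher.

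*gapdh* was at 407, 504 and 432 TPM in the wt samples, against 379, 508 and 605 TPM in *tulp1*-dKO, and the SD of 113 TPM in *tulp1*-dKO was the largest of the 10 members. The highest and the lowest of the 6 values were both *tulp1*-dKO samples. Its log2 fold change was 0.13 (SE 0.17, 95% interval −0.27 to 0.53, limma adjusted p = 0.752) and became −0.02 without *tulp1*-dKO sample 3. The samples ranked for *gapdh* exactly as they did for the pancreas and gut markers. Those sums were 821, 1288 and 848 TPM in the wt samples, against 715, 1835 and 3368 TPM in *tulp1*-dKO. The liver markers ranked much alike, with sums of 4734, 6762 and 5131 TPM in wt, against 3209, 5439 and 7943 TPM in *tulp1*-dKO. The part of the liver, pancreas and gut markers in the *gapdh* level was not tested. The log2 ratio of *gapdh* to *gapdhs* was −1.85 in wt and −1.55 in *tulp1*-dKO (exact two-sided permutation test, p = 0.3).

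For enolase, *eno1a* (ENSDARG00000022456) encodes the alpha form found in most tissues and *eno2* (ENSDARG00000014287) the gamma form known as neuron-specific enolase. *eno1a* was at 585, 590 and 557 TPM in the wt samples, against 570, 523 and 542 TPM in *tulp1*-dKO. *eno2* was at 141, 136 and 143 TPM in the wt samples, against 141, 126 and 115 TPM in *tulp1*-dKO, and for both genes *tulp1*-dKO sample 1 lay within the wt range. The log2 fold changes of *eno1a* and *eno2* were −0.08 (95% interval −0.23 to 0.06) and −0.14 (95% interval −0.36 to 0.07), with limma adjusted p = 0.554 and 0.481. Their ratio was 4.12 in wt and 4.30 in *tulp1*-dKO on average, and the log2 ratio differed by 0.06 (exact two-sided permutation test, p = 0.6). The summed level of 10 neuronal markers overlapped between the groups too, at 1936 to 2232 TPM in the wt samples, against 1818 to 2244 TPM in *tulp1*-dKO, and 0 of the 10 passed the test.

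*pkma* (ENSDARG00000099730) and *pkmb* (ENSDARG00000099860) are the a and b copies of the muscle and brain type of pyruvate kinase. *pkma* was at 403, 465 and 419 TPM in the wt samples, against 495, 410 and 359 TPM in *tulp1*-dKO, and the *tulp1*-dKO samples enclosed the wt samples on both sides. *pkmb* was at 42.2, 42.7 and 46.7 TPM in the wt samples, against 42.2, 47.7 and 52.8 TPM in *tulp1*-dKO. The groups overlapped here too, and the log2 fold changes of *pkma* and *pkmb* were −0.04 (95% interval −0.33 to 0.25) and 0.11 (95% interval −0.14 to 0.36), with limma adjusted p = 0.921 and 0.656. Among the *tulp1*-dKO samples the 2 copies ran in opposite order, and the ratio of *pkma* to *pkmb* was 11.8, 8.59 and 6.80 there against 9.56, 10.9 and 8.96 in wt (exact two-sided permutation test of the log2 ratio, p = 0.6).

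Lactate dehydrogenase A favours the making of lactate, and the B form its use. *ldhba* (ENSDARG00000019644) was at 590, 597 and 586 TPM in the wt samples, against 618, 576 and 579 TPM in *tulp1*-dKO. Its log2 fold change was below 0.01 in size with a 95% interval of −0.13 to 0.13 (limma adjusted p = 0.998), the narrowest interval of the 10. *ldha* (ENSDARG00000101251) was at 244, 252 and 210 TPM in the wt samples, against 191, 212 and 192 TPM in *tulp1*-dKO, where only wt sample 3 and *tulp1*-dKO sample 2 crossed. Its log2 fold change was −0.24 (SE 0.09, 95% interval −0.45 to −0.03, unadjusted p = 0.0307, limma adjusted p = 0.234). The log2 ratio of *ldha* to *ldhba* was −1.33 in wt and −1.57 in *tulp1*-dKO (exact two-sided permutation test, p = 0.2). Over the 5 pairs of paralogs the adjusted p of the ratio was 0.6 for each, and 3 samples against 3 cannot give a p below 0.1. Reads may be shared between similar copies, which TPM values do not show, so the division within a pair carries that uncertainty.

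**Figure D2:**
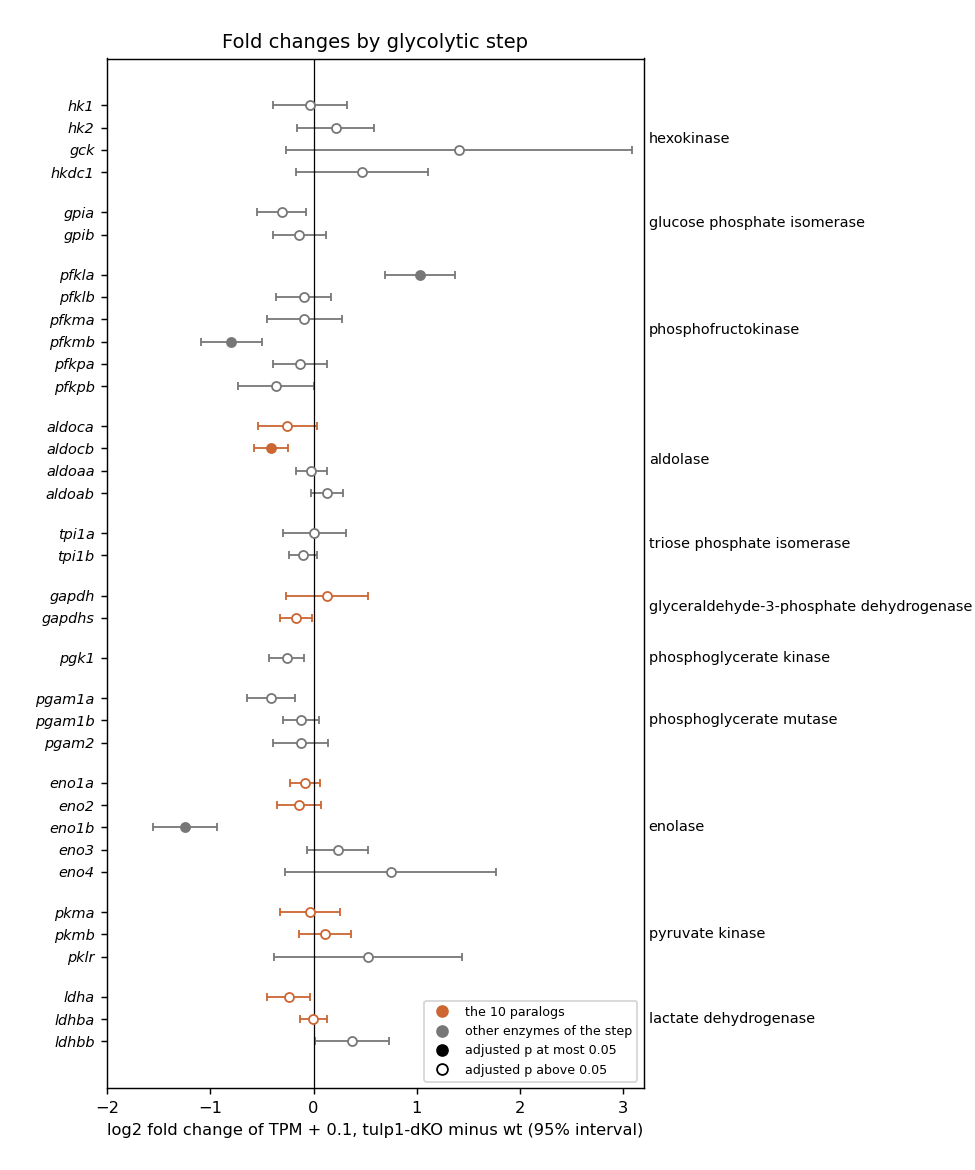
Log2 fold change (horizontal axis, *tulp1*-dKO minus wt, with 95% intervals from limma) of the 10 paralogs (orange) and 25 other enzymes (grey), filled where the adjusted p was at most 0.05. They are set out by 11 steps, some of which hold none of the 10 paralogs. Filled points are *aldocb*, *pfkmb* and *eno1b* below 0 and *pfkla* above 0, and the 10 paralogs lie between −0.42 and 0.13.

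Around the members, 63 of 71 other listed genes of glucose uptake, glycolysis, lactate transport, pyruvate entry into mitochondria and gluconeogenesis were found by name and tested. Of these, 8 passed the test at an adjusted p of at most 0.05, 7 lower and 1 higher. Of all genes tested 1.89% passed, 1.22% lower and 0.67% higher. The lists were written with earlier results of these data known, so the count beside this share is descriptive and was not tested. The median log2 fold change of the 63 was −0.02. Of the 8 that passed, all but *bsg* changed by more than *aldocb* on the log2 scale. Gluconeogenesis (8 genes tested) and the fructose 2,6-bisphosphate enzymes (6 genes) had no call.

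Among the enzymes, *eno1b* (ENSDARG00000013750), the second alpha enolase copy, fell from 85.1, 85.7 and 89.5 TPM in wt to 42.4, 38.4 and 29.9 TPM in *tulp1*-dKO. Its log2 fold change was −1.25 (SE 0.13, limma adjusted p = 0.00785), and it passed in all 17 alternatives. Its mean share of all enolase mRNA was 8.34% in wt and 3.72% in *tulp1*-dKO, and that of *eno1a* was 55.4% and 55.0%. *pfkla* (ENSDARG00000060504), a liver type phosphofructokinase, rose from 18.7, 19.2 and 16.1 TPM to 42.6, 30.7 and 38.5 TPM, for a log2 fold change of 1.03 (limma adjusted p = 0.0204). *pfkmb* (ENSDARG00000060797), a muscle type copy of the same enzyme, fell from 12.6, 12.9 and 14.4 TPM to 8.51, 7.52 and 6.87 TPM, for a log2 fold change of −0.80 (limma adjusted p = 0.0299). Phosphofructokinase is the main point of control of glycolysis. Its 6 genes together were at 160 ± 8.24 TPM in the wt samples, against 161 ± 17.2 TPM in *tulp1*-dKO (n = 3 each).

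In transport, *slc2a1a* (ENSDARG00000001437), a copy of the glucose transporter GLUT1, fell from 34.7, 34.8 and 36.0 TPM to 11.9, 7.65 and 10.8 TPM, for which the log2 fold change was −1.81 (SE 0.17, limma adjusted p = 0.00387), and it also passed in all 17 alternatives. *slc2a3a* (ENSDARG00000013295), a copy of GLUT3, fell from 48.5 ± 2.34 to 33.7 ± 2.12 TPM (limma adjusted p = 0.0379). *bsg* (ENSDARG00000019881), encoding basigin, a partner of lactate transporters and of GLUT1, fell from 355 ± 10.7 to 269 ± 3.18 TPM (limma adjusted p = 0.0241). At the entry of pyruvate into mitochondria, *pdha1b* (ENSDARG00000010555), a subunit of pyruvate dehydrogenase, fell from 32.0 ± 5.72 to 8.93 ± 4.12 TPM (log2 fold change −1.93, limma adjusted p = 0.0468). *pdk2b* (ENSDARG00000059054), a kinase that inhibits that enzyme, fell from 24.6 ± 5.52 to 7.19 ± 1.94 TPM (log2 fold change −1.77, limma adjusted p = 0.0185).

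Leaving out 1 library at a time left *eno1b* and *slc2a1a* among the calls each time, but each of the other 6 was lost at least once. *bsg* and *slc2a3a* were lost each time, at adjusted p values from limma of 0.0531 to 0.122 and 0.0533 to 0.153. The count of lower genes was then 2 (without wt sample 1 or 2, or *tulp1*-dKO sample 2), 3 (without wt sample 3) or 4 (without *tulp1*-dKO sample 1 or 3). *pfkla* was at adjusted p values of 0.0857, 0.0658 and 0.0532 from limma without wt sample 1, 2 or 3 and 0.0640 without *tulp1*-dKO sample 3.

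In lists where nothing passed, the gene with the smallest p was *gpia* for the isomerase (log2 fold change −0.31), *pgk1* for phosphoglycerate kinase (−0.26), *pgam1a* for the mutase (−0.41), *aldoab* among the other aldolases (0.13), *tpi1b* for triose phosphate isomerase (−0.10), *pklr* among the other pyruvate kinases (0.53), *ldhbb* among the other lactate dehydrogenases (0.37), *pfkfb2b* among the fructose 2,6-bisphosphate enzymes (−0.27) and *fbp2* in gluconeogenesis (0.63). Their adjusted p from limma ran from 0.0998 to 0.570. None of these genes passed the test.

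**Figure D3:**
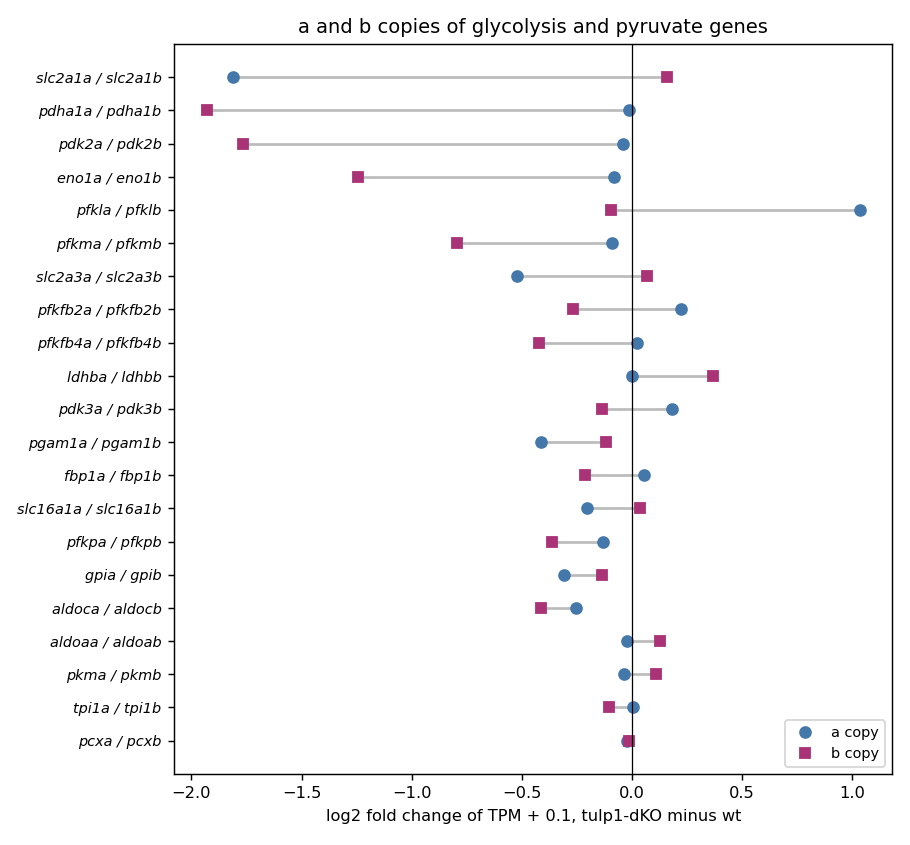
Log2 fold change (horizontal axis, *tulp1*-dKO minus wt) of the a copy (blue circle) and the b copy (purple square) of 21 pairs of glycolysis and pyruvate genes, ordered by the distance between the copies. The pairs *aldoca*/*aldocb* and *pkma*/*pkmb* lie close together near the bottom, while *slc2a1*, *pdha1*, *pdk2*, *eno1* and *pfkl* copies are 1.13 to 1.97 apart.

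Copies of several genes of glucose uptake, glycolysis and pyruvate entry moved apart by more than *aldoca* and *aldocb* or *pkma* and *pkmb*. All a and b copies in the lists were paired by name after the values were known, giving 21 pairs. The log2 ratio of a to b shifted by at least 1 with no overlap between the groups in 5 of the 21, against 4.17% of the 2589 pairs named in this way among all genes tested. In *slc2a1a*/*slc2a1b* it was the a copy that was lower, in *pdha1a*/*pdha1b*, *pdk2a*/*pdk2b* and *eno1a*/*eno1b* the b copy, and in *pfkla*/*pfklb* the a copy was higher. In each of the 5 the fold change of the other copy was small, with log2 values of 0.16 for *slc2a1b*, −0.01 for *pdha1a*, −0.04 for *pdk2a*, −0.08 for *eno1a* and −0.10 for *pfklb*. The shifts of *aldoca*/*aldocb* (0.16) and *pkma*/*pkmb* (−0.15) were among the smallest. Without regard to size, the ratio did not overlap between groups in 11 of the 21 pairs, against 25.7% of all such pairs. These counts describe the pairs and were not tested.

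**Figure D4:**
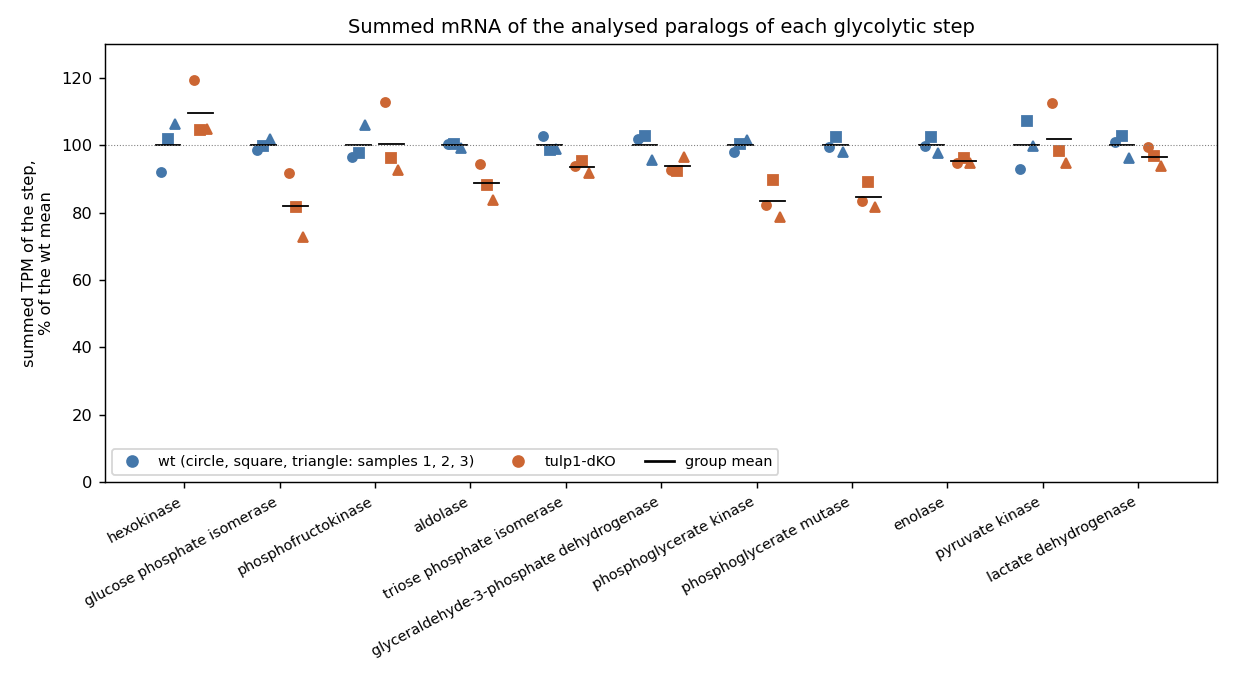
Summed TPM of the paralogs analysed in each of 11 steps, as a percentage of the wt mean (vertical axis from 0), for wt (blue) and *tulp1*-dKO samples (orange), with circle, square and triangle for samples 1, 2 and 3 and black lines at group means. Step means in *tulp1*-dKO lie between 82.0% and 110% of wt, and 6 steps have no overlap.

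Summed over paralogs, the steps of glycolysis together were slightly lower in *tulp1*-dKO. The 35 genes of the 11 steps amounted to 7272, 7409 and 7119 TPM in the wt samples, against 6935, 6753 and 6639 TPM in *tulp1*-dKO. The mean changed by −6.76%, and the groups did not overlap. For the 10 members alone the change was −7.71%, also without overlap. These 2 sums were not tested. Such sums weigh abundant genes most. The largest falls in mean TPM were those of *gapdhs*, from 1611 to 1434, and *aldocb*, from 579 to 435. Of the steps, 8 were lower and 3 higher by mean. In 6 steps the highest *tulp1*-dKO total was below the lowest wt total, namely glucose phosphate isomerase (82.0% of wt), phosphoglycerate kinase (83.5%), phosphoglycerate mutase (84.7%), aldolase (88.8%), triose phosphate isomerase (93.6%) and enolase (95.2%). Of all single genes tested, 8.86% were lower and 14.6% higher without overlap. No such share was computed for step totals, and phosphoglycerate kinase is 1 gene here. For the 6 steps the exact two-sided permutation test gave p = 0.1, the smallest it can give, and an adjusted p of 0.183 over the 11 steps. Of the steps that hold members, glyceraldehyde-3-phosphate dehydrogenase was at 93.8% of wt (exact two-sided permutation test, p = 0.2), lactate dehydrogenase at 96.6% (exact p = 0.3) and pyruvate kinase at 102% (exact p = 0.7). Of the 4 aldolase genes summed, *aldocb* held 45.1% of the mRNA in wt and 38.1% in *tulp1*-dKO.

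Many photoreceptor genes of the same libraries fell by more than any of the 10 members. Of 14 rod marker names, 13 were found and tested, and 10 passed, each of them lower. The median log2 fold change was −2.09, and their sum was 2870 to 3293 TPM in the wt samples, against 438 to 818 TPM in *tulp1*-dKO. Of 15 cone markers, 8 passed, all lower, with a median of −1.37, and sums of 16097 to 16744 and 3354 to 6162 TPM. By sign 12 were lower and 3 higher, and 2 of the higher ones did not overlap between the groups without passing the test, *gngt2a* (log2 fold change 1.18, limma adjusted p = 0.0566) and *opn1mw2* (0.84, limma adjusted p = 0.216). None of the rod and cone markers found was at 0 in all samples. *gnat1*, *rho* and *gnat2*, the rod transducin subunit, rhodopsin and the cone transducin subunit, had log2 fold changes of −3.04, −2.76 and −1.99. In dissected heads, fewer cells of a type and less mRNA per cell cannot be told apart, and the part of the photoreceptor markers in the lower *aldocb*, *eno1b* and *slc2a1a* levels was not tested. In *tulp1*-dKO, *aldocb* ran in the same order as the rod and cone sums, highest in sample 1 and lowest in sample 3. In wt, where *aldocb* spanned only 574 to 587 TPM, it ran in the order of the cone sum but not of the rod sum. The wt order of the cone sum depends on *pde6ha*. That marker was at 1976, 2701 and 713 TPM in wt samples 1 to 3 and spanned more than the sum itself. An order with sample 1 highest and sample 3 lowest was not particular to *aldocb*. *gapdhs* had it in both groups, and *eno2*, *pkma* and the neuronal sum had it in *tulp1*-dKO. There *gapdh*, *pkmb* and the liver and pancreas sums ran in the reverse order, and the remaining members in neither. Of the other pathway genes that passed, *eno1b*, *pfkmb* and *pdha1b* followed the rod sum in both groups, but ran against the cone sum in wt. The wt order of the rod sum likewise depends on *rho*. It was at 1625, 2013 and 2086 TPM in wt samples 1 to 3 and spanned more than the rod sum. The wt orders of both sums thus need not hold for the other markers. *slc2a1a* followed the rod sum in wt but not in *tulp1*-dKO. In *tulp1*-dKO *slc2a3a* had the order too, *pfkla* did not, and *bsg* and *pdk2b* ran in reverse. The order was not tested. Of 8 Muller glia markers 0 passed the test. Their sums did not overlap, at 1622 to 1656 TPM in the wt samples, against 1488 to 1609 TPM in *tulp1*-dKO. Singly, *rlbp1a* and *glula* were lower and *gfap* higher without overlap, and the other markers overlapped. The skeletal muscle sum was 10520 to 11373 TPM in the wt samples, against 12223 to 13174 TPM in *tulp1*-dKO, with all 15 entries higher by sign and 0 past the threshold. At an unadjusted p of at most 0.05 limma called 6 of the 15, against 17.1% of all genes. Without overlap 5 of the 15 were higher, against 14.6% of all genes. The sum of 7 erythrocyte markers was 2970 to 3148 TPM in the wt samples, against 2438 to 2887 TPM in *tulp1*-dKO, with all 7 lower by sign and 0 past the threshold. Of 8 microglia and macrophage markers 1 passed, *mfap4*, which was lower (log2 fold change −1.55, limma adjusted p = 0.0369). By sign 6 of the 8 were higher and 2 lower. Their sums overlapped, at 437 to 489 TPM in the wt samples, against 427 to 507 TPM in *tulp1*-dKO. Most of each sum was *apoeb*, at 404 to 464 TPM in the wt samples, against 397 to 479 TPM in *tulp1*-dKO. That gene is also among the Muller glia markers, so the sum says little about the other microglia and macrophage markers. The part of the Muller glia, muscle, erythrocyte, microglia and macrophage markers in the levels of the enzymes was not tested.

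Genes averaging 10 TPM or more were searched for patterns like that of *aldocb*. The 3 whose values over the 6 samples ran closest to *aldocb*, by the root mean square difference of log2 values each centred on its wt mean, were *bbs2* (0.0279), *slc24a3* (0.0357) and *atp11a* (0.0433), out of 11131 candidates. *bbs2* encodes a subunit of the BBSome of the cilium, *slc24a3* a sodium, potassium and calcium exchanger and *atp11a* a phospholipid transporter. Their log2 fold changes were −0.41, −0.44 and −0.40, with limma adjusted p = 0.112, 0.0634 and 0.0894, so none of the 3 passed the test. The distance includes the shift from wt to *tulp1*-dKO, so fold changes near that of *aldocb* follow from the selection and are no separate result.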

How the data were processed

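Sequencing reads were mapped by the authors to GRCz11 with HISAT2, counted per gene with RSEM and converted to TPM, the unit of the deposited values (versions not given in the sources used here). The count-based test of the study cannot be run on TPM. Here, genes averaging 0.5 TPM or more (22824) were tested by limma 3.58.1 under R 4.3.3 after adding 0.1 and taking log2, with a mean-variance trend in eBayes and Benjamini-Hochberg adjustment at 0.05. Ratios and step totals were compared by exact permutation over the 6 samples, in Python 3.11.15 with numpy 2.4.6, pandas 2.3.3 and scipy 1.17.1; figures used matplotlib 3.10.9. Step totals cover the genes analysed here, and 1 gene is not reported here. *ldhd*, a D-lactate enzyme, was left out of the lactate dehydrogenase total. Besides the 10 members, genes of the hand-written pathway lists were named by rule as those called in each list, or the one with the smallest p. Also named were *tulp1a*, *tulp1b*, some cell type markers, the other copies of a and b pairs and the genes nearest to *aldocb*. Members and lists were chosen with earlier results of these data known. The alternatives were 2 pseudocounts, 2 filters, 3 scalings, 2 variance models, a replicate block, summing by name and leaving out each sample. No sequences are shown.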

Additional observations from a re-analysis of the deposited data

How the results depend on the processing

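The call of *aldocb*, and with it the count of changed members, was lost (0 of 10) with quantile normalization (log2 fold change −0.36, adjusted p = 0.0727 from limma), without the trend in eBayes (−0.42, adjusted p = 0.130) and without single samples, where the count ran from 0 to 1 and the log2 fold change from −0.47 to −0.37. The count with a 2-fold minimum was 0 under each of the 17 alternatives. The sign of *ldhba* turned with quantile normalization (0.033) and without the 50 most abundant genes (0.0019), and with single samples left out it lay between −0.033 and 0.017; *pkma* then lay between −0.16 and 0.073 and *gapdh* between −0.023 and 0.31. None of these was called. Of the other pathway genes, 3 lower and 0 higher were called without the trend, and 2 to 4 lower and 0 to 1 higher without single samples. Median ratio scaling moved the log2 ratio of the step totals of triose phosphate isomerase to −0.14, enolase to −0.12 and lactate dehydrogenase to −0.10. Same-numbered samples correlated at only 0.029 to 0.032 in their deviations from the group means, although each correlated best with its own number, so the samples were not taken as paired. With the replicate number as a block, 0 members (*aldocb* −0.42, adjusted p = 0.113 from limma), 2 lower and 0 higher pathway genes were called. The reads behind each value are unknown, so the counting error of each gene is unmeasured.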
